A study of Caenorhabditis elegans with 4 samples.

Results

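Chromosome IV of Caenorhabditis elegans held 108 of the 644 binding regions in the combined MAB-5::GFP peak list, and 5129 and 5305 of the 30000 peaks listed for ChIP replicates 1 and 2. The members were chosen by chromosome alone: every peak listed on chromosome IV in any of the 3 lists was kept, and no peak was filtered out. The regions come from ChIP-seq (chromatin immunoprecipitation followed by sequencing) of mixed-sex embryos of strain OP27. The strain has the allele unc-119(ed3) and an integrated transgene, wgIs27, introduced by bombardment. The transgene supplies unc-119 together with mab-5::TY1 EGFP FLAG, the tagged Hox gene, beside whatever endogenous mab-5 the animals have. Its copy number and insertion site are not given in the labels. The ChIP group and the input group had 2 samples each and shared this strain and stage. The input samples were not analysed here, and there was no other genotype or treatment. Culture was at 20 °C, formaldehyde (2%) served as crosslinker, and antibodies to GFP pulled down the fusion protein. The labels do not say whether the replicates came from separate cultures.

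MAB-5 is a homeodomain transcription factor of the Hox family, which assigns regional identity along the body axis. In C. elegans it is known for posterior patterning and for directing the migration of the Q neuroblast descendants, and Hox proteins commonly bind DNA together with Pbx and Meis class cofactors. The worm's autosomes have gene-dense centres with little recombination and arms that recombine more and carry more repeats. Chromosome IV is also known for carrying most of the piRNA (21U-RNA) genes, in broad clusters. Genes and base sequences are not assigned to the regions below, because no WS220 sequence or annotation was used here, and all positions are WormBase WS220 coordinates.

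Each list gives a score per peak whose scale is not named. It was used to rank peaks within a list, with the authors' peak number (1 for the first peak) breaking ties. Replicates are compared below on the 644 highest scoring nuclear peaks of each, called the highest peaks, a number equal to the length of the combined list. The peak number follows the score broadly but not exactly: 626 of the 644 highest peaks in replicate 1 and 628 in replicate 2 had a number of 644 or lower. Below the top score, a later peak can have the higher score. In replicate 2, for example, peak 277 scored 2.27 and peak 421 scored 2.45. The highest peaks included 109 on chromosome IV in replicate 1 and 112 in replicate 2. Combined peaks on chromosome IV had a density of 6.18 per Mb, against 4.01 to 8.85 per Mb on chromosomes I, II, III and V. The highest peaks gave 6.23 per Mb on chromosome IV in replicate 1 and 6.40 in replicate 2. The count on this chromosome therefore lay inside the range of the other autosomes. Of the 108 combined intervals, 99 were 540 bp wide, which was also the widest size, and 9 were narrower. No interval was listed more than once, and merging the overlapping ones left 105 separate regions that covered 54.6 kb.

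By equal parts of its length, chromosome IV held fewer combined peaks in the centre than on either side. Chromosome IV was taken to span 17.49 Mb, up to its last replicate peak, and was divided into 3 equal parts at 5.83 and 11.66 Mb. The left part held 39 combined peaks, the central part 28 and the right part 41. The central part thus had 25.9% of the peaks of chromosome IV (95% exact interval 18.0 to 35.2%), an interval that includes an even spread. On the other autosomes it had 181 of 420 peaks, or 43.1% (38.3 to 48.0%), above an even spread. Over all chromosomes, X included, 37.7% of combined peaks lay in the central part.

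This difference was larger than the counting spread over peaks. The central share was 17.2 percentage points below that of the other autosomes (95% interval of the difference -25.9 to -7.05; two-sided Fisher's exact test, adjusted p = 0.00392 over the 3 parts). The outer parts both had higher shares on chromosome IV, 36.1% against 27.9% on the left and 38.0% against 29.0% on the right, and neither passed on its own (Fisher's exact adjusted p = 0.0989 for each). Taken singly, each of the other autosomes had a higher central share than chromosome IV. The central part held 41.5% on chromosome I, 41.9% on chromosome II and 40.8% on chromosome III, each with an adjusted p of 0.0245 over 4 comparisons by Fisher's exact test. On chromosome V it held 50.0% (Fisher's exact adjusted p = 0.00334). The X chromosome, which is not an autosome and was not tested, had 28.9%. Peaks of one list share their library, so these p-values cover counting over peaks and not variation between cultures. An earlier overview of these data had already shown the central share of chromosome IV, so these tests are no independent support for it.

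**Figure D1:**
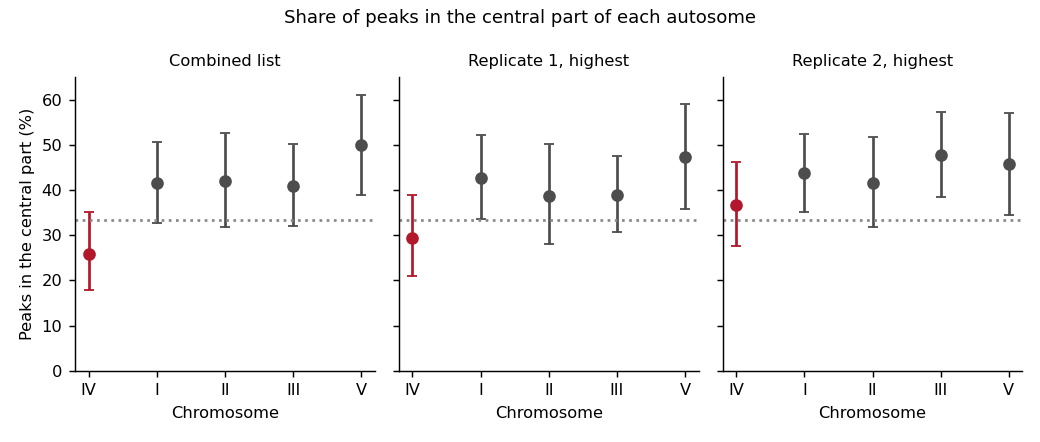
Share of peaks (%) in the central part of each autosome, chromosome IV first, for the combined list and the 644 highest nuclear peaks of each replicate. Points are shares, bars are 95% exact intervals and the dotted line is the share of an even spread; chromosome IV lies lowest in all 3 lists, at 25.9%, 29.4% and 36.6%.

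The replicates taken one at a time showed the same direction with smaller differences. In replicate 1, 32 of the 109 highest peaks on chromosome IV were central (29.4%), against 41.5% on the other autosomes. In replicate 2 it was 41 of 112 (36.6%), against 44.7%. Within replicate 2 the central part was the fullest of chromosome IV, with 41 peaks against 36 on the left and 35 on the right. Neither difference from the other autosomes passed over the 3 parts (Fisher's exact adjusted p = 0.0624 in replicate 1 and 0.404 in replicate 2). The combined list was made from both replicates and is not a further measurement.

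The deficit against the other autosomes depended on how far down the lists one went. Among the 100 highest nuclear peaks, 3 of 14 on chromosome IV were central in replicate 1 and 1 of 15 in replicate 2, against 38.5% and 41.5% on the other autosomes. In the upper 50% of the highest peaks, chromosome IV had 12 of 54 central in replicate 1 (22.2%, against 41.9%) and 12 of 51 in replicate 2 (23.5%, against 45.6%). At this length, which was added after the data were seen, both replicates passed on their own (Fisher's exact adjusted p = 0.0330 in replicate 1 and 0.0129 in replicate 2). The 2 groups of chromosomes then drew together. At 5000 peaks the shares were 36.4% against 36.5% in replicate 1 and 35.2% against 35.6% in replicate 2. At 10000 peaks replicate 1 had 35.2% against 34.8%, the only computed length at which chromosome IV was higher. Over the whole nuclear lists they were 32.6% against 33.2% and 30.9% against 32.0%, so weak peaks on chromosome IV were spread almost evenly over the parts. The lists of increasing length contain one another and are not independent. The list of 100 peaks in each replicate, and in replicate 1 also the upper 50%, lie wholly inside the tied top score, where the authors' peak number alone sets the order.

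**Figure D2:**
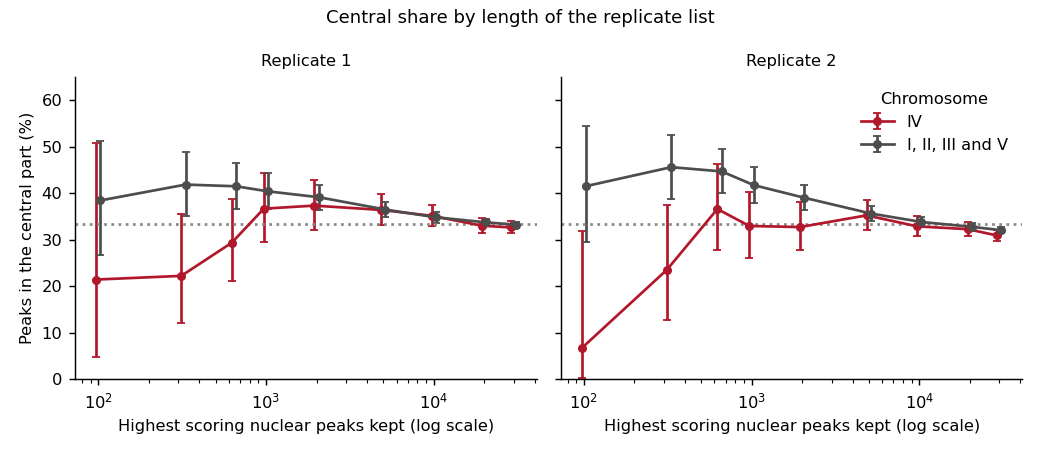
Share of peaks (%) in the central part against the number of highest scoring nuclear peaks kept (log scale), for chromosome IV (red) and chromosomes I, II, III and V together (grey), with 95% exact intervals. In both replicates chromosome IV starts below the other autosomes, at 21.4% and 6.67% of the 100 highest peaks, and meets them by 5000 peaks.

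At a finer scale, the 17 complete 1 Mb bins of chromosome IV held from 2 to 13 combined peaks, with a median of 5. The fullest bin of the combined list, 13 to 14 Mb, had 13 combined peaks, 11 of the highest peaks in replicate 1 and 9 in replicate 2. It was not the fullest in either replicate. Among the highest peaks, the fullest bin was 7 to 8 Mb in replicate 1, with 12 peaks. In replicate 2 it was 11 to 12 Mb, with 10 peaks, a bin that crosses the right edge of the central part. In the combined list the left end came next, with 11 combined peaks in the first Mb and 10 in the second. The lowest count of combined peaks, 2, was in the bin from 9 to 10 Mb, inside the central part, and the bins on either side of it held 3 and 4. The same bins, from 8 to 11 Mb, held 2, 2 and 3 of the highest peaks in replicate 1, and 6, 3 and 6 in replicate 2, where the median bin held 6 and the lowest count, 2, was at 15 to 16 Mb. The whole lists had 302, 301 and 228 peaks in the bins from 8 to 11 Mb in replicate 1 and 289, 253 and 247 in replicate 2, against medians of 298 and 296 over the complete bins. The 228 peaks from 10 to 11 Mb were the fewest of any complete bin in replicate 1, and the lowest count in replicate 2 was 246.

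**Figure D3:**
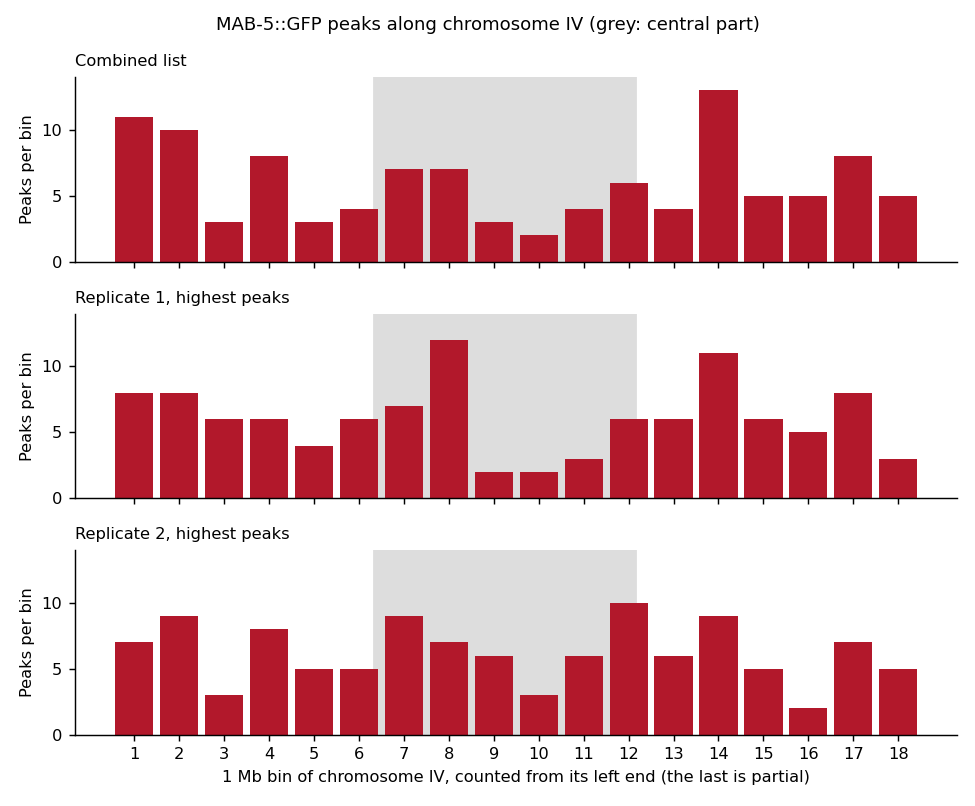
Peaks per 1 Mb bin of chromosome IV, counted from the left end, in the combined list and among the highest peaks of each replicate; the grey band is the central part and the last bin is partial. Bin 14, the fullest of the combined list only, holds 13, 11 and 9 peaks, while bin 10 holds 2, 2 and 3.

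The highest peaks of replicate 1 that had no partner in replicate 2 were mostly central. Replicate 1 had 12 of its highest peaks between 7 and 8 Mb, its fullest bin on the chromosome, where replicate 2 had 7. Of the 109 highest replicate 1 peaks on chromosome IV, 11 met no peak anywhere in the replicate 2 list (10.1%), and 9 of these 11 were central. That is 28.1% of the 32 central peaks, against 2.60% of the 77 peaks in the outer parts (Fisher's exact test, adjusted p = 0.00182 over 8 comparisons). On the other autosomes the central share without partner was 14.4%, against 13.7% in the outer parts. The contrast between parts was larger on chromosome IV than on the other autosomes (exact test of equal odds ratios, adjusted p = 0.00394 over 4 tests). The 9 peaks sat close in position, with 6 of them between 7 and 8 Mb, so they are not 9 separate observations.

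The unmatched peaks with the lowest numbers in replicate 1 were peak 168 (7099311 to 7099774), peak 227 (7315651 to 7316114) and peak 341 (7103180 to 7103643), all central and all at the top score of that list. In replicate 2 they were peak 277 (11566073 to 11566562), peak 384 (5966889 to 5967378) and peak 402 (11119028 to 11119517). These were central as well, but none had the top score, and the unmatched peak with the highest score in replicate 2, peak 421 (16501848 to 16502337), was in the right part. For replicate 2 the share without partner was 14.6% in the central part and 8.45% in the outer parts, which did not pass (Fisher's exact adjusted p = 0.551).

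Central peaks of replicate 2 on chromosome IV met a combined peak less often than its outer ones. The combined list was made from both replicates, so this contrast partly restates its low central share and is no separate support. Of its highest peaks there, 21 of 41 central ones met a combined peak (51.2%), against 57 of 71 in the outer parts (80.3%; Fisher's exact adjusted p = 0.00993). On the other autosomes the shares were 72.1% and 68.3%, and the contrast between parts differed between chromosome IV and the others (exact test of equal odds ratios, adjusted p = 0.00394). For replicate 1 the shares on chromosome IV were 40.6% central and 62.3% outer, and neither this contrast (Fisher's exact adjusted p = 0.149) nor its difference from the other autosomes (exact adjusted p = 0.215) passed. These comparisons by part were chosen after the data were seen.

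Over the chromosome as a whole, no difference in replicate agreement from the other autosomes was detected. Among the highest peaks, 41 of 109 replicate 1 peaks on chromosome IV overlapped one of replicate 2 by at least 1 bp (37.6%, 95% exact interval 28.5 to 47.4%), against 169 of 415 on the other autosomes (40.7%). Over all nuclear chromosomes it was 39.4%. The difference of -3.11 points had a 95% interval of -12.9 to 7.34 (Fisher's exact p = 0.584), an interval that covers differences in both directions. By part, the share was 42.1% on the left, 28.1% in the centre and 41.0% on the right, with wide intervals (13.7 to 46.7% in the centre). With equal numbers taken within each chromosome, 40 of 108 peaks on chromosome IV were shared (37.0%), and the other autosomes ranged from 35.5% on chromosome II to 45.1% on chromosome III.

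Every combined peak on chromosome IV met a listed peak in both replicates. On the other autosomes 416 of 420 met one in replicate 1 and all 420 in replicate 2, so this is no trait of chromosome IV. Partners were sought in the whole lists, where an overlap of 1 bp sufficed. Those lists covered 2223 kb of chromosome IV in replicate 1 and 2388 kb in replicate 2. Some partners can therefore be weak or neighbouring peaks met by chance, and the rate of such meetings was not computed. Many combined peaks on chromosome IV had unequal peak numbers in the replicates. The median combined peak had the number 527 in replicate 1 (quartiles 252.25 and 1209) and 381 in replicate 2 (quartiles 204 and 775). Of the 108, 43 lay among the highest peaks of both replicates (39.8%), against 39.3% on the other autosomes and 39.1% over all chromosomes. The Fisher's exact p of that difference was 0.913. Another 20 were among the highest of replicate 1 alone, 34 of replicate 2 alone and 11 of neither. In 21 of the 108 the peak numbers differed more than 10-fold (19.4%), and the higher number was that of replicate 1 in 14 and of replicate 2 in 7. On the other autosomes such gaps were found in 102 of the 416 peaks with a partner in both replicates (24.5%), 73 with the higher number in replicate 1 and 29 in replicate 2, a comparison that was not tested. By part of chromosome IV there were 6 in the left, 6 in the central and 9 in the right part. The widest gap was at combined peak 565 (393276 to 393815), number 29216 in replicate 1, near the end of that list, and number 255 in replicate 2. The opposite case was combined peak 386 (14767598 to 14768137), number 181 in replicate 1 and 8247 in replicate 2. Across the 108 peaks Spearman's rho of the peak numbers was 0.23, against 0.14 on the other autosomes, a description over peaks that were all selected into the combined list. In 3 places 2 overlapping combined peaks met the same replicate peak.

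**Figure D4:**
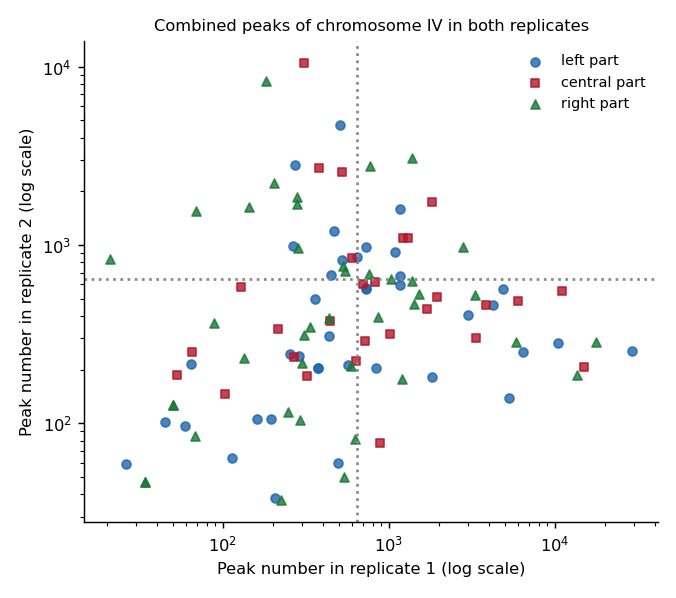
Peak numbers in replicate 1 and replicate 2 (log scales) of the 108 combined peaks on chromosome IV, by part of the chromosome; a lower number comes earlier in the authors' order, which follows the score broadly, and dotted lines mark number 644. The points scatter widely around a weak relation (rho 0.23), and the farthest to the right is combined peak 565, at number 29216 in replicate 1 and 255 in replicate 2.

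The top score of the combined list is shared by many peaks, so it marks the strongest class. On chromosome IV 41 of 108 combined peaks had it (38.0%), against 185 of 420 on the other autosomes (44.0%) and 42.1% over all chromosomes. The difference of -6.08 points (95% interval -15.9 to 4.43) did not pass (Fisher's exact p = 0.277). By part, 11 of the 41 were on the left (28.2% of the combined peaks there), 9 central (32.1%) and 21 on the right (51.2%), and the central share did not differ detectably from the outer parts, with 32 of 80 (Fisher's exact p = 0.505). With the densest window described below left out, the right part kept 13 of 33 combined peaks at the top score (39.4%). The difference from the other autosomes was then -11.0 points (Fisher's exact p = 0.0549). The window was left out on chromosome IV only, and all 8 of its peaks had the top score. The share of chromosome IV therefore had to fall, and this p-value is no further support for a difference.

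The 10 combined peaks of chromosome IV with the lowest peak numbers all had the top score in the combined list and met a top-score peak in each replicate. The first was combined peak 19 (13695746 to 13695988), number 34 in replicate 1 and 47 in replicate 2. The next were combined peak 28 (390383 to 390647), number 26 in replicate 1 and 59 in replicate 2, and combined peak 42 (14464154 to 14464340), number 68 in replicate 1 and 85 in replicate 2. Combined peak 44 (4749951 to 4750166) stood higher in replicate 2, as number 38, than in replicate 1, as number 205. Combined peak 46 (740777 to 740999) had number 45 in replicate 1 and 102 in replicate 2. These first 5 were all narrower than the common width, between 187 and 265 bp, while the other 5 were 540 bp wide. The narrowest interval of the chromosome, 135 bp, belonged to combined peak 116 (5535847 to 5535981).

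The remaining peaks of these 10 were combined peaks 65 (6648433 to 6648972), 67 (13699097 to 13699636), 68 (3765355 to 3765894), 73 (654681 to 655220) and 75 (2408421 to 2408960). Their numbers in replicate 1 were 53, 50, 59, 114 and 194, and those in replicate 2 were 186, 127, 97, 64 and 105. By position, 6 of the 10 were in the left part, 1 was central and 3 were in the right part. Combined peak 65 was the central one.

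The densest 40 kb window of combined peaks on chromosome IV ran from 13682651 to 13721452 in the right part and held 8 peaks, or 6 separate regions once overlapping peaks were merged. All 8 had the top score of the combined list. The densest windows of the other autosomes held from 3 to 9 peaks, or 3 to 8 merged regions, where chromosome III had the most in both counts. Chromosome III alone set the upper end, since the densest windows held 4 peaks on chromosome I, 4 on chromosome II and 3 on chromosome V. On chromosome IV both replicates had their densest window of highest peaks at the same place as the combined list. Replicate 1 had 6 peaks between 13682702 and 13721412, all at its top score, and replicate 2 had 7 between 13694514 and 13721448, of which 4 had its top score. Each made 5 regions when merged. The median window on chromosome IV, starting at each peak, held 1 peak in each of these lists.

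Most regions of this window lay around its middle, and 1 stood apart at each end. From left to right, combined peak 79 (13682651 to 13683190) met number 21 of replicate 1, the lowest number that any combined peak of this chromosome met in that list, but number 832 of replicate 2. Combined peak 263 (13694493 to 13695032) was the reverse, with number 1417 in replicate 1 and 465 in replicate 2. Next to it lay the overlapping pair of combined peaks 19 and 266 (13695806 to 13696345), and then the overlapping pair of combined peaks 67 and 115 (13699371 to 13699910). Combined peak 152 (13703898 to 13704437) had number 88 in replicate 1 and 366 in replicate 2. Combined peak 203 (13720913 to 13721452) had number 134 in replicate 1 and 231 in replicate 2. The whole lists held 25 peaks in this window in replicate 1 and 26 in replicate 2, against medians of 13 per window on chromosome IV. These counts include the 6 and 7 highest peaks, though most of the listed peaks there were weaker. The window was picked as the densest of the combined list, so its counts against a median window are a description only.

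**Figure D5:**
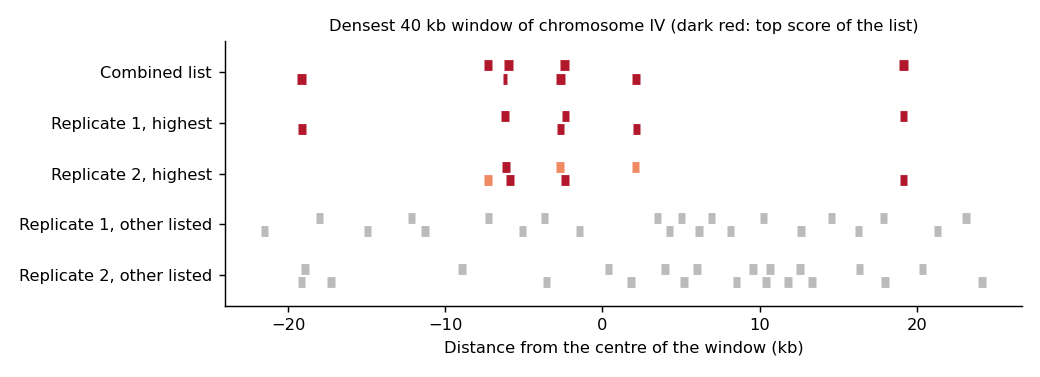
Peaks in and just around the densest 40 kb window of chromosome IV, by distance from its centre (kb), in the combined list, among the highest peaks of each replicate and among the other listed peaks (grey); dark red marks the top score of a list and orange lower scores among the highest peaks. The 8 combined peaks are all at the top score, and the highest peaks of each replicate lie at the same places, except that the far left one is missing in replicate 2, where its number is 832, and that of combined peak 263 in replicate 1, where its number is 1417.

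Other groups on chromosome IV were smaller. A window from 385063 to 393815, in the left part, held 4 combined peaks (3 regions), 2 of them at the top score and including combined peak 28. Replicate 1 had 2 of its highest peaks inside, and replicate 2 had 3. A window from 17249590 to 17278791, near the right end, held 4 separate combined peaks, 3 of them at the top score. Replicate 1 had 3 of its highest peaks there and replicate 2 had 4. The other windows with 3 or more combined peaks held 3 each, at 1094049 to 1108440, 15013291 to 15039964 and 16482844 to 16498533. Only 1 of these 9 peaks had the top score. None of the 6 windows lay in the central part of the chromosome.

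For close spacing as a whole, no difference from the other autosomes was detected. After merging, 17 of 105 combined regions on chromosome IV had another region within 5 kb (16.2%, 95% exact interval 9.72 to 24.7%), against 62 of 413 on the other autosomes (15.0%) and 14.1% over all chromosomes. The difference of 1.18 points had a 95% interval of -5.76 to 9.97 (Fisher's exact p = 0.762). In the combined list the right part held 10 of the 17 close regions, the left part 5 and the central part 2. The median distance to the nearest region was 59.1 kb on chromosome IV, against 42.6 kb on the other autosomes, a description with no test. The highest peaks gave 18.5% of regions with a neighbour within 5 kb in replicate 1 and 17.0% in replicate 2, against 14.1% and 14.2% on the other autosomes. Their close regions were less scarce in the centre. In replicate 1 there were 4 on the left, 6 in the centre and 10 on the right, and in replicate 2 there were 5, 4 and 9.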

How the data were processed

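Peak lists were available for the 2 ChIP replicates and for the series as a whole. The authors called peaks with SPP, followed by IDR (irreproducible discovery rate), on build WormBase WS220, per the file headers and each entry's source field. The deposited score of each peak has no stated scale, so it served for ranking within a list. Not given in the sources used here are the aligner, versions, thresholds and how both replicates entered the combined list. Read depth is unknown. Intervals cover counting error only.

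Software was numpy 2.4.6, scipy 1.17.1, pandas 2.3.3 and statsmodels 0.14.6 under Python 3.11.15. Identical intervals were counted once for positions and spacing. A partner was the overlapping peak with the lowest number. Chromosome parts, bins and windows used interval midpoints. Chromosome ends were the last replicate peaks. Shares were compared with two-sided Fisher's exact tests, with Benjamini-Hochberg adjustment in each family, exact (Clopper-Pearson) intervals for single shares and Newcombe intervals for differences. Differences between contrasts used an exact conditional test of equal odds ratios. Functions were tested on simulated lists. The region and the tests were chosen with earlier results of these data known. Named regions were the 10 first combined peaks, the densest windows, the 3 unmatched peaks of lowest number per replicate and the extreme widths, and the most unequal peaks and replicate 2 peak 421 were added after their values were seen. The planned gene list was not used, since no WS220 annotation was used here. Input samples were not analysed here.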

Additional observations from a re-analysis of the deposited data

How the results depend on the processing

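Each difference here is chromosome IV minus the other autosomes, in percentage points. Of 42 alternative values, 34 kept their direction and, where tested, their side of the threshold. Most of these belong to results that had not passed in the main setting or to the densest window, which had no test. The count is therefore no measure of robustness. Only the central part had passed in the main setting. The difference in the central part was negative in the alternatives to the combined list (-22.1 to -8.09), but over other lengths of the replicate lists it ran between -34.9 (100 peaks, replicate 2) and 0.325 (10000 peaks, replicate 1). It no longer passed with a single replicate's highest peaks in place of the combined list (-12.1 without replicate 2, -8.09 without replicate 1; Fisher's exact adjusted p = 0.0624 and 0.404). Without the densest window, an alternative added after the data were seen, as was the upper 50% of each replicate's highest peaks, it was -15.1 (Fisher's exact adjusted p = 0.0190). That window was left out on chromosome IV only, here and below, and the other autosomes kept all their peaks. In the higher scoring 50% of the combined list the right part passed as well, at 19.4 points (23 of 51 peaks). That 50% includes all 8 peaks of the densest window, which lies in the right part. In the full combined list the right part's difference was 3.95 points without that window (Fisher's exact adjusted p = 0.466). Differences that did not pass in any setting changed sign in 5 cases: replicate sharing at 1000 peaks (0.493) and 5000 peaks (0.0423), close regions within 10 kb (-3.92) or without the densest window (-1.88), and top-score peaks without replicate 2 (0.254). The top-score difference was -2.82 without replicate 1 and reached -11.0 without the densest window, whose 8 peaks all had the top score. The cause was not tested. The densest window held 6 to 9 peaks and took in the position of combined peak 19 in each setting. No paired analysis was possible because the input samples have no peak list here. Unknown read depth and 2 replicates limit all of these values.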

Other observations

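The windows densest in weak peaks were not those of the combined list. Over its whole list, replicate 1 had the most peaks on chromosome IV between 5940253 and 5980383, where 32 lay in 40 kb, and replicate 2 between 16010596 and 16050611, where 35 did. Neither window held a combined peak or a top-score peak, and the lowest peak numbers inside were 695 for replicate 1 and 703 for replicate 2. With overlapping peaks merged, the densest window of replicate 1 was another one, near the left end, with 25 regions and combined peak 416 (192002 to 192541) inside it. The longest stretch of chromosome IV without any combined peak, 827 kb from 15571191 to 16398081, lay in the right part and included the second of these windows. Among the highest peaks of replicate 2 the longest empty stretch was nearly the same (15571123 to 16398060), whereas in replicate 1 it ran over 714 kb from 10222383 to 10936855, in the central part.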
